A study of Mus musculus with 12 samples.

Results

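Chemokines and their receptors were followed in bulk RNAseq of the developing mouse lung. Members were chosen by name alone, as the genes of the count table with a mouse symbol of the Ccl, Cxcl, Ccr, Cxcr, Cx3c or Ackr series. Of the 16152 genes, 33 met this rule, 20 ligands and 13 receptors. The 12 libraries came from whole lungs of wild-type C57BL/6 mice of both sexes, with no treatment, 3 replicates at each of the embryonic (E) and postnatal (P) days E15.5, E18.5, P5 and P8. The replicates of a time-point were taken from the same litter, so that a difference between litters and a difference between time-points cannot be told apart, and the p-values measure the spread between littermates. The labels do not say which library came from which sex. Adjacent time-points were compared, and a change was called where it exceeded 1 on the log2 scale in either direction with a false discovery rate (FDR, Benjamini-Hochberg) under 0.05 in the edgeR quasi-likelihood test over 15994 genes.

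Chemokines are small secreted proteins that bind receptors of the G protein-coupled type and steer the migration of leukocytes and of some progenitor and endothelial cells. Homeostatic chemokines are made at a steady rate and place cells in tissues and lymphoid organs, whereas inflammatory chemokines are made on stimulation and call in monocytes, granulocytes and effector T cells. Atypical receptors bind chemokines without signalling through G proteins, and they remove or transport them. In the lung, chemokines are made by epithelial, endothelial and stromal cells and by macrophages, and the receptors are carried for the most part by leukocytes, with the exceptions named below.

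The reads counted per library ranged from 41337443 to 53901957, and a count of 0 in a library allowed a level of up to 0.0482 to 0.0619 counts per 1000000 mapped reads (CPM), taking 3 counts as the limit for counting error alone. The lung label was checked against alveolar type 2 and club cell markers, whose sum over 8 genes was 628 to 892 CPM at E15.5 and 19767 to 22573 CPM at P8. Libraries E15.5 replicate 2 and P8 replicates 1 and 2 stood apart in genes of the thymus. The sum of 21 thymus and T cell markers was 25.2, 107 and 28.4 CPM in E15.5 replicates 1, 2 and 3 and 329, 601 and 56.9 CPM in P8 replicates 1, 2 and 3, whereas it ranged over 22.2 to 23.8 CPM in the E18.5 and 46.8 to 58.0 CPM in the P5 replicates. In P8 replicates 1 and 2, 20 of the 21 genes were above P8 replicate 3, and *Foxn1*, a transcription factor of thymic epithelium, was at 1.70, 2.79 and 0.0657 CPM in the P8 replicates and at 0 in each E18.5 and P5 library. The called changes of the members were also fitted without these 3 libraries. Differences past the FDR cutoff alone are given with them only. In whole lung, more cells of a type and more RNA per cell cannot be told apart.

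Promoter stretches of 3 ligands are shown because these were the most abundant member at P5 and an adjacent pair of genes that rose together. Each is the 120 bases before the annotated gene start in RefSeq (GRCm38.p6), written 5′ to 3′ on the gene's strand. For *Cxcl15* (chr5:90794414-90794533, plus strand) the capitals mark the letters TATAAA, which begin at position -27 from the start. For *Ccl6* (chr11:83593088-83593207, minus strand) and *Ccl9* (chr11:83578637-83578756, minus strand) the capitals mark the runs of 10 or more bases that also stand in the other gene's stretch.
Cxcl15: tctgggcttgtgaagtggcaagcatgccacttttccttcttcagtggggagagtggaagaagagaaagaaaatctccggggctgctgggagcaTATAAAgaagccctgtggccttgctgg
Ccl6: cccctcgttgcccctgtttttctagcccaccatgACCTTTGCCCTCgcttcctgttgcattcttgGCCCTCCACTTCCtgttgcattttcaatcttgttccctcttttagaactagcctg
Ccl9: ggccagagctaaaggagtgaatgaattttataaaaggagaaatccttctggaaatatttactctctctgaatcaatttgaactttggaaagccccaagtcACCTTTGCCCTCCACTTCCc
The *Ccl6* and *Ccl9* stretches share 2 such runs, the longer of 13 bases, which cover 25 bases of *Ccl6* and 19 of *Ccl9*. In the windows from 250 bases before to 50 after the start, TATAAA on either strand stood in 8 of the 26 windows matched to 23 members, and in 13.6% of all 32851 windows. The NF-kappaB consensus stood in 4 of the 26 member windows, those of *Ackr2*, *Ccl27a*, *Ccl9* and *Ccr1*, and in 8.46% of all windows. These matches describe letters only.

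The interval from E18.5 to P5, which spans birth, held most of the called changes. Of the 33 members, 18 rose and 3 fell, where 17.5% of all 15994 genes tested rose and 9.34% fell. The median log2 fold change of the members was 1.42, beside -0.0024 for all genes tested. From E15.5 to E18.5 only *Ackr2* rose and no member fell, where 1.59% of all genes rose and 1.46% fell. From P5 to P8, 4 members rose and none fell, where 2.88% of all genes rose and 0.0875% fell. The edgeR test had 11 members at an unadjusted p under 0.05 in each of these 2 comparisons, for which the share over all genes is not given here. The DESeq2 test called 2 members in the first, 1 of them lower, and 4 members, none lower, in the last.

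All 33 members passed the filter of at least 1 count per 1000000 counted reads in 3 libraries, but 9 of them met it in the postnatal libraries alone, where 85.3% of the 1235 genes of that kind rose from E18.5 to P5. These were *Ackr4*, *Ccl5*, *Ccl22*, *Ccr7*, *Ccr9*, *Cxcl17*, *Cxcr2*, *Cxcr5* and *Cxcr6*, and 8 of them rose. *Ccl2* and *Ccl7* met it in the embryonic libraries alone, and both fell, as did 62.1% of the 446 genes of that kind. *Ccl24* needed libraries from both sides of birth together. Among the 21 members that met the filter on each side of birth, 10 rose and 1 fell, where 12.2% of the 14225 such genes rose and 8.55% fell. The counts over all members are therefore given as a description.

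**Figure D1:**
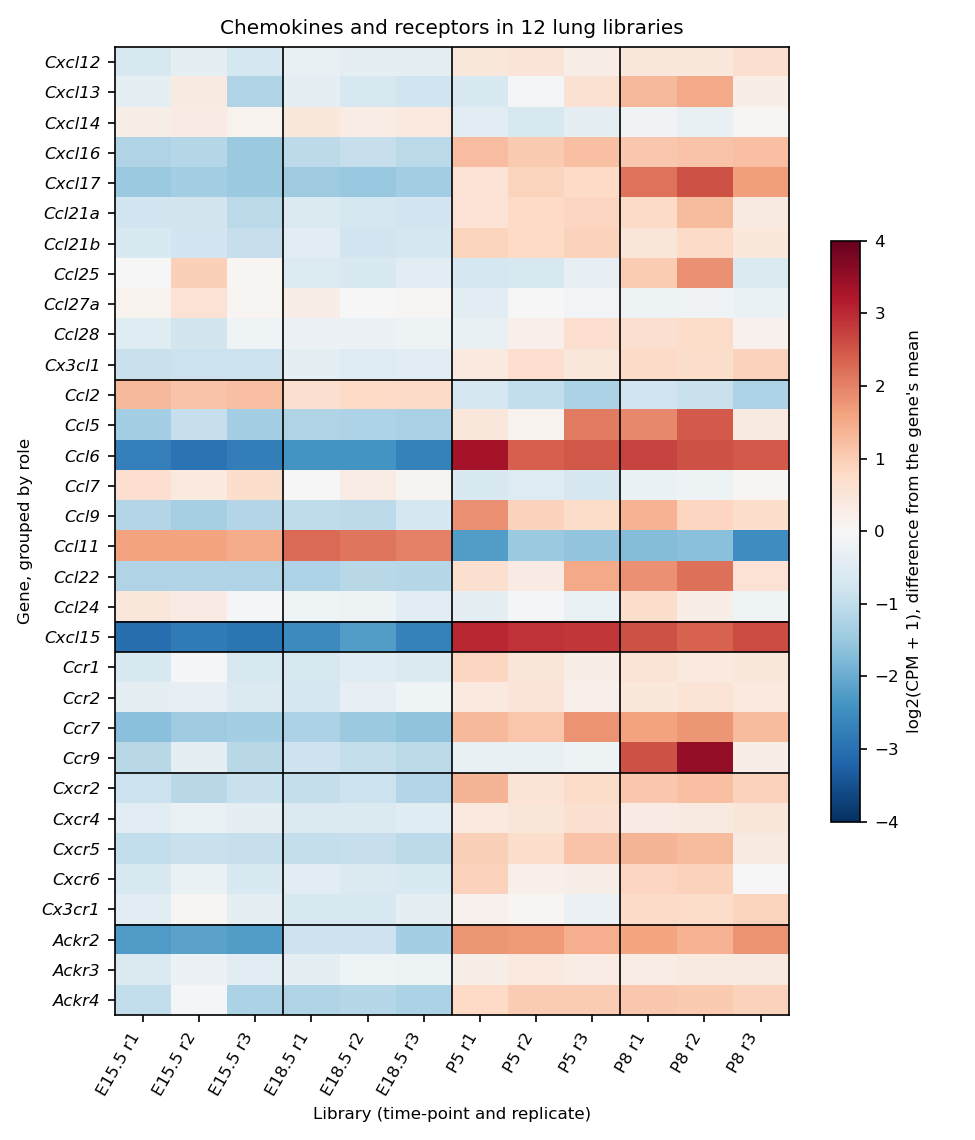
Each row is 1 of 32 chemokine or receptor genes and each column a library (r1 to r3 are the replicates), and the colour gives log2(CPM + 1) as the difference from the gene's mean over the 12 libraries. Most rows turn from blue to red between E18.5 and P5, with *Ccl2*, *Ccl7* and *Ccl11* in the opposite direction and *Ccl25* and *Ccr9* reddest in P8 replicates 1 and 2.

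*Cxcl15*, also called lungkine, is a chemokine of lung epithelium that attracts neutrophils, and it was the member with the highest level per length at both postnatal time-points. It was at 18.7, 22.0 and 19.9 CPM in the E15.5 replicates and at 26.1, 32.9 and 23.2 CPM in the E18.5 replicates. At P5 it reached 1289, 1168 and 1141 CPM, and at P8 it was at 921, 813 and 976 CPM. The 6 postnatal libraries lay far above the 6 embryonic ones, and the P8 libraries all lay below the P5 libraries. The rise from E18.5 to P5 was 46.6-fold (log2 fold change 5.54, SE 0.15, edgeR FDR = 1.3e-10). Smaller differences passed the FDR cutoff but not the fold change cutoff, 0.45 between E15.5 and E18.5 (edgeR FDR = 0.027) and -0.43 from P5 to P8 (edgeR FDR = 0.033). The gene lies at chr5:90794534-90803067 on the plus strand (mm10, GENCODE vM21). Divided by exon length, its mean level was 12.9 CPM per kb at E18.5 and 564 CPM per kb at P5. The sum of the 8 alveolar type 2 and club cell markers moved with it, from 1293 to 2215 CPM at E18.5 to 19550.0 to 20789.7 CPM at P5, with all 8 genes higher in every P5 library, and the part of these cells in the rise was not tested.

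*Cxcr2*, the receptor of neutrophil-attracting CXC chemokines, rose in the same interval. Its level was 0.355, 0.157 and 0.334 CPM at E15.5 and 0.267, 0.364 and 0.0916 CPM at E18.5. In the postnatal replicates it was 5.40, 2.60 and 3.12 CPM at P5 and 4.19, 4.74 and 3.70 CPM at P8, all above the embryonic libraries (log2 fold change 4.04, SE 0.46, edgeR FDR = 6.2e-06 from E18.5 to P5). Of the 11 neutrophil markers, 9 were higher in every P5 library, including *Ly6g*, which was at 0 in all E18.5 libraries, but not *Mpo* and *Elane*. The 11 markers summed to 2.22 to 6.53 CPM at E18.5 against 66.5 to 83.1 CPM at P5. Their sum was 346, 288 and 76.7 CPM in the P8 replicates, a difference carried for the most part by the granule gene *Ltf* at 227, 209 and 17.8 CPM, and without *Ltf* the sum of the other 10 was 119.6, 79.1 and 58.9 CPM at P8 against 74.6, 51.5 and 57.1 CPM in the P5 replicates. Their part in the level of *Cxcr2* was not tested.

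The grouping of ligands as inflammatory or homeostatic was assigned here, and counts by class depend on it. The inflammatory CC ligands divided by direction, with 4 of the 8 higher and 3 lower at P5 than at E18.5. *Ccl6* and *Ccl9*, ligands of *Ccr1* made by myeloid cells, were among those that rose. *Ccl6* was at 1.73, 1.34 and 1.65 CPM at E15.5 and 2.48, 2.49 and 1.79 CPM at E18.5. It was at 182, 94.3 and 101 CPM at P5 and 116, 105 and 97.4 CPM at P8, with P5 replicate 1 above all other libraries (log2 fold change 5.90, SE 0.29, edgeR FDR = 6.0e-09). Its level per length at P5, 70.1 CPM per kb, was the next below that of *Cxcl15*. *Ccl9* was at 2.67, 2.58 and 3.61 CPM at E18.5 against 25.6, 13.3 and 11.6 CPM at P5, again highest in P5 replicate 1 (log2 fold change 2.61, SE 0.32, edgeR FDR = 1.1e-05). Its E15.5 libraries, at 2.31, 1.97 and 2.34 CPM, lay below every E18.5 library, and its P8 libraries, at 18.7, 12.7 and 11.1 CPM, overlapped those of P5. *Ccr1*, the receptor that binds both, rose from 3.69, 4.25 and 3.88 to 12.4, 9.31 and 7.91 CPM (log2 fold change 1.42, SE 0.22, edgeR FDR = 8.0e-05). It was at 3.86, 6.09 and 3.68 CPM at E15.5 and 9.79, 8.59 and 9.01 CPM at P8. P5 replicate 1 was thus the highest P5 library for *Ccl6*, *Ccl9*, *Ccr1* and *Cxcr2*. It was also highest in the macrophage and monocyte marker sum, at 387, 305 and 293 CPM in the P5 replicates against 109 to 119 CPM at E18.5. The same held for the erythroid and megakaryocyte sum, at 8548, 5414 and 5934 CPM in the P5 replicates. It held as well for the neutrophil sum, the eosinophil, basophil and mast cell sum and the alveolar type 2 and club cell sum. It did not hold for the B cell and dendritic cell sums. The part of any of these cell types was not tested.

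*Ccl5* and *Ccl22* were low before birth and rose after it. *Ccl5*, which attracts T cells and monocytes, was at 0, 0.334 and 0 CPM at E15.5 and 0.103, 0.0957 and 0.0366 CPM at E18.5, with the thymus-high E15.5 replicate 2 the highest of the 6. Its P5 replicates were at 2.49, 1.82 and 9.68 CPM and its P8 replicates at 8.74, 12.9 and 2.25 CPM (log2 fold change 5.95, SE 1.15, edgeR FDR = 4.9e-04 from E18.5 to P5). The spread at P5 was wide, with replicate 3 above the other two, and without it the log2 fold change was 4.86. *Ccl22*, a ligand of *Ccr4* made by dendritic cells and macrophages, was at 0.0323, 0.0197 and 0.0197 CPM at E15.5 and 0, 0.0957 and 0.0732 CPM at E18.5, which rested on 0, 5 and 4 reads in the E18.5 replicates. It was at 2.71, 1.98 and 5.80 CPM at P5 and 7.43, 9.83 and 2.56 CPM at P8 (log2 fold change 5.96, SE 0.74, edgeR FDR = 1.3e-05 from E18.5 to P5). P5 replicate 3 was again the highest of its group, and P8 replicates 1 and 2 were the highest of all. From P5 to P8 neither gene was past the FDR cutoff (edgeR FDR = 0.54 and 0.23).

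*Ccl11* (eotaxin), which attracts eosinophils through *Ccr3*, fell more than any other member. It was at 30.1, 30.2 and 27.4 CPM at E15.5 and 48.1, 43.9 and 39.5 CPM at E18.5, and the E18.5 libraries all lay above the E15.5 libraries, a difference that was not past the FDR cutoff (edgeR FDR = 0.14). At P5 it was at 1.17, 2.64 and 2.38 CPM and at P8 at 2.05, 2.21 and 0.805 CPM (log2 fold change -4.34, SE 0.32, edgeR FDR = 1.4e-07 from E18.5 to P5). At E18.5 *Ccl11* had the highest level per length of all members, 40.5 CPM per kb, ahead of *Cxcr4* at 20.5 and *Cxcl12* at 17.7 CPM per kb. The sum of the 8 eosinophil, basophil and mast cell markers went the other way, from 16.6 to 20.3 CPM at E18.5 to 116 to 146 CPM at P5, with 6 of the 8 higher in every P5 library. Most of this sum came from 2 genes, *Gata2*, a transcription factor also of endothelium, at 14.1, 16.1 and 15.9 CPM at E18.5 against 73.7, 81.1 and 75.1 CPM at P5, and *Ear2*, at 0.821, 1.03 and 0.513 against 62.4, 42.4 and 33.2 CPM. Without these 2 genes the other 6 summed to 1.66, 3.16 and 2.91 CPM at E18.5 against 9.84, 8.20 and 7.91 CPM at P5. The granule genes *Epx* and *Prg2* were low, each at 0, 0.0191 and 0 CPM at E18.5. At P5 *Epx* was at 0.0963, 0.0206 and 0 CPM. *Prg2* was at 0.466, 0.392 and 0.247 CPM at P5, higher in every P5 library. The part of these cells was not tested.

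*Ccl2* and *Ccl7*, which attract monocytes through *Ccr2*, fell as well. *Ccl2* was at 7.41, 6.47 and 6.80 CPM at E15.5, then at 4.31, 4.98 and 4.74 CPM at E18.5 and next at 1.16, 0.723 and 0.427 CPM at P5 (log2 fold change -2.50, SE 0.35, edgeR FDR = 3.4e-05 from E18.5 to P5). It was at 0.985, 0.849 and 0.444 CPM at P8, and the 6 postnatal libraries lay below the 6 embryonic ones. *Ccl7* was at 2.39, 1.75 and 2.46 CPM at E15.5, then at 1.13, 1.59 and 1.26 CPM at E18.5 and next at 0.385, 0.475 and 0.329 CPM at P5 (log2 fold change -1.66, SE 0.29, edgeR FDR = 2.6e-04 from E18.5 to P5). In the P8 libraries it was at 0.759, 0.833 and 1.23 CPM, all above P5 (log2 fold change 1.23, SE 0.29, edgeR FDR = 0.016 from P5 to P8), so its P8 range met that of E18.5. This last call was lost without P5 replicate 1, P5 replicate 3 or P8 replicate 3, when its log2 fold change lay between 0.98 and 1.24, and without the 3 libraries high in thymus genes, which leaves P8 replicate 3 as the 1 library of its time-point, the log2 fold change was 1.61. *Ccr2* itself was at 5.87, 7.68 and 8.72 CPM at E18.5 against 13.4, 14.4 and 11.5 CPM at P5, a difference in the other direction that passed the FDR cutoff but not the fold change cutoff (log2 fold change 0.90, SE 0.14, edgeR FDR = 1.0e-04). Its E15.5 values were 7.29, 7.57 and 6.33 CPM and its P8 values 13.5, 14.8 and 13.2 CPM. *Ccl24*, a further ligand of *Ccr3* and the last of the 8 inflammatory CC ligands, was between 0.256 and 1.74 CPM in all libraries and was called in no comparison.

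**Figure D2:**
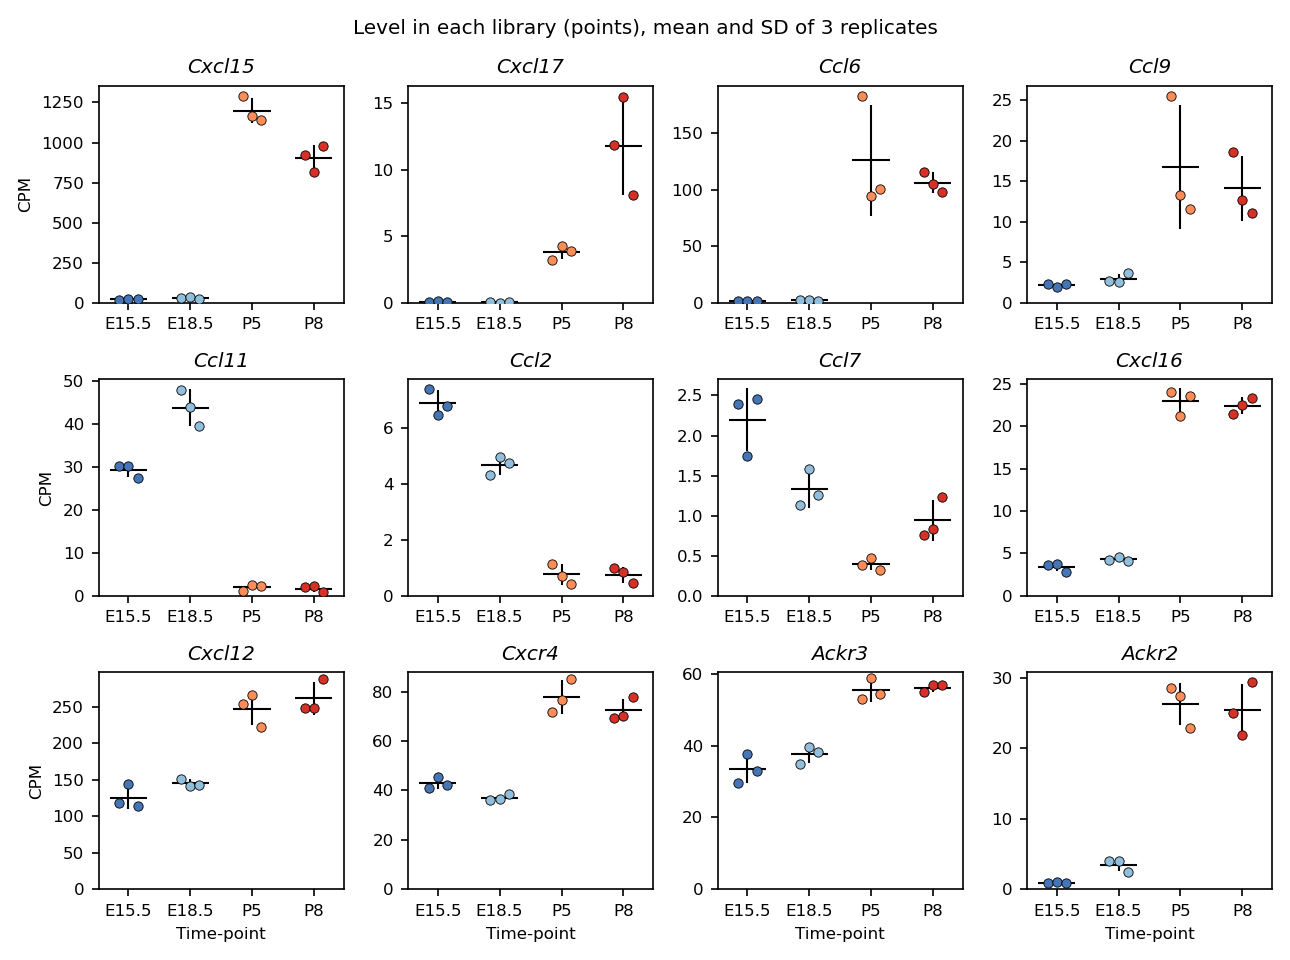
Points give the level of 12 genes in each library in CPM (linear axes from 0), grouped by time-point, with a horizontal line at the mean and a vertical line of 1 SD on each side (n = 3). *Cxcl15* stands between 813 and 1289 CPM in the postnatal libraries, *Ccl11* falls from 39.5 to 48.1 CPM at E18.5 to under 3 CPM after birth, and *Ccl7* is lowest at P5.

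The 3 ligands that fell and 3 of those that rose lie in 2 groups of neighbouring genes on chromosome 11. *Ccl2* (chr11:82035571-82037453), *Ccl7* (chr11:82045712-82047525) and *Ccl11* (chr11:82057823-82062955), all on the plus strand of mm10, start within 22.3 kb, and all 3 fell. *Ccl5* (chr11:83525778-83530518), *Ccl9* (chr11:83572919-83578636) and *Ccl6* (chr11:83587882-83593087), on the minus strand, begin 1463 kb beyond the end of *Ccl11*, and all 3 rose. Neighbours listed only in the deposited CPM table were included where every library of at least 1 time-point had more than 3 reads. These were *Ccl12*, *Ccl3* and *Ccl4*, for which whole reads could be recovered. In the fit on those reads *Ccl3* rose (log2 fold change 2.02, SE 0.46, edgeR FDR = 0.0019), while *Ccl12* was at 0.267, 0.459 and 0.348 CPM at E18.5 against 0.658, 0.268 and 0.805 CPM at P5 (log2 fold change 0.79, SE 0.49, edgeR FDR = 0.21) and *Ccl4* was not called (edgeR FDR = 0.92). The neighbours of the count table shared their direction within each group, but the filter on low counts bore on some of these directions. *Ccl2* and *Ccl7* met it in the embryonic libraries alone, where no gene of that kind rose. *Ccl5* met it in the postnatal libraries alone, where no gene of that kind fell. The estimate for *Ccl12*, which lies in the group that fell, had the other sign.

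**Figure D3:**
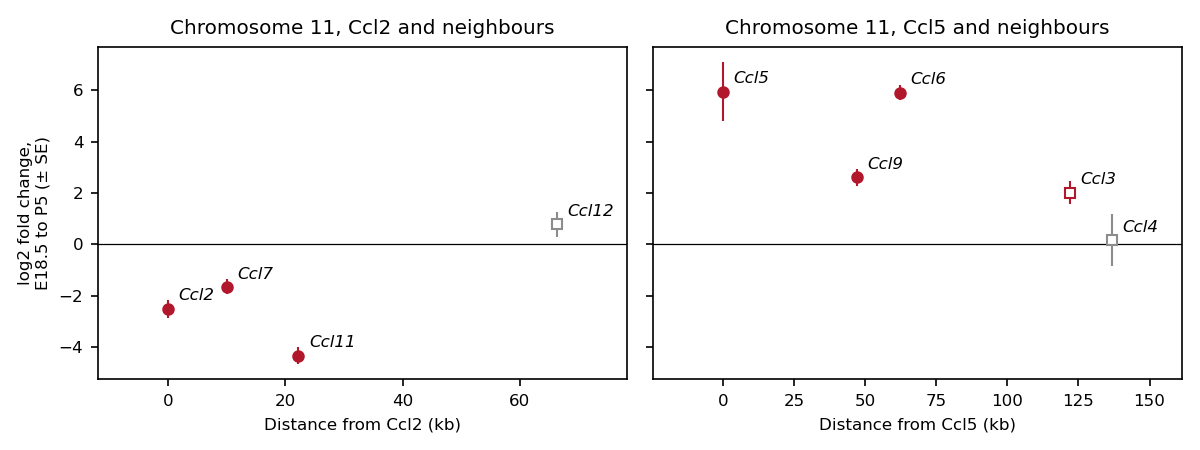
The change of chemokine genes between E18.5 and P5 on the log2 scale (± SE) is plotted against the distance in kb from *Ccl2* (left) or *Ccl5* (right). Circles are genes of the count table and squares genes with reads recovered from the CPM table, and red marks a call. *Ccl2*, *Ccl7* and *Ccl11* lie below 0 and *Ccl5*, *Ccl9*, *Ccl6* and *Ccl3* above it.

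Of the 11 homeostatic ligands, 5 rose from E18.5 to P5 and none fell past both cutoffs. *Cxcl12*, which holds progenitors and guides vessels through *Cxcr4*, was at 118, 144 and 114 CPM at E15.5 and 151, 142 and 142 CPM at E18.5. Its postnatal values were 254, 266 and 222 CPM at P5 and 248, 248 and 288 CPM at P8, all above the embryonic libraries, and the difference between E18.5 and P5 passed the FDR cutoff but stayed under the fold change cutoff (log2 fold change 0.86, SE 0.10, edgeR FDR = 7.0e-06). *Cxcr4* was at 40.9, 45.6 and 42.1 CPM at E15.5 and 36.0, 36.4 and 38.5 CPM at E18.5. It rose to 72.0, 76.5 and 85.4 CPM at P5 and was at 69.6, 70.3 and 77.8 CPM at P8 (log2 fold change 1.16, SE 0.07, edgeR FDR = 2.8e-08). *Ackr3*, the atypical receptor that takes up *Cxcl12*, was at 29.7, 37.7 and 33.1 CPM at E15.5, 34.8, 39.7 and 38.3 CPM at E18.5, and then at 52.9, 59.0 and 54.6 CPM at P5 and 54.9, 56.9 and 56.9 CPM at P8 (log2 fold change 0.65, SE 0.08, edgeR FDR = 1.6e-05). The ligand and its 2 receptors therefore all had higher postnatal than embryonic libraries, with estimated log2 differences from E18.5 to P5 between 0.65 and 1.16. The 9 endothelial markers summed to 1139.6 to 1272 CPM at E18.5 against 2440.4 to 2583 CPM at P5, with 8 of the 9 higher in every P5 library, and their part was not tested.

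*Ccl21a* and *Ccl21b*, which bring dendritic cells and naive T cells to lymphatic vessels and lymph nodes through *Ccr7*, are near-identical copies. Reads were mapped uniquely, so reads that fit both copies may be missing from both levels, and how many is not known. *Ccl21a* was at 5.13, 5.23 and 3.95 CPM at E15.5, 5.97, 5.40 and 5.05 CPM at E18.5, and then at 14.5, 16.9 and 18.03 CPM at P5 and 16.7, 23.7 and 12.4 CPM at P8 (log2 fold change 1.67, SE 0.20, edgeR FDR = 9.6e-06 from E18.5 to P5). *Ccl21b* was at 2.52, 2.20 and 1.85 CPM at E15.5 and 2.94, 2.16 and 2.29 CPM at E18.5. Its postnatal values were 8.94, 8.32 and 9.32 CPM at P5 and 6.53, 8.12 and 6.28 CPM at P8 (log2 fold change 1.93, SE 0.17, edgeR FDR = 7.2e-07 from E18.5 to P5). For both genes the 6 postnatal libraries lay above the 6 embryonic ones. *Ccr7* was low before birth, at 0, 0.177 and 0.236 CPM at E15.5 and 0.328, 0.134 and 0.0366 CPM at E18.5. It rose to 6.76, 5.86 and 10.1 CPM at P5 and was at 8.78, 9.75 and 6.67 CPM at P8 (log2 fold change 5.61, SE 0.66, edgeR FDR = 7.7e-06), and the log2 fold change was 6.54 without E18.5 replicate 1, the highest embryonic library. *Ackr4*, which scavenges the Ccr7 ligands and Ccl25, was at 0.307, 1.49 and 0.0787 CPM at E15.5 and 0.123, 0.172 and 0.0732 CPM at E18.5, with the thymus-high E15.5 replicate 2 the highest of the embryonic libraries. The difference between these 2 time-points was not called (log2 fold change -2.31, SE 0.78, edgeR FDR = 0.053). It was at 3.44, 4.17 and 4.22 CPM at P5 and 4.39, 4.28 and 3.81 CPM at P8 (log2 fold change 5.07, SE 0.77, edgeR FDR = 7.0e-05 from E18.5 to P5). Part of an *Ackr4* exon overlaps *Acad11*, so that reads there may be shared.

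*Cxcl16*, a membrane-bound ligand that attracts T cells, and its receptor *Cxcr6* both rose. *Cxcl16* was at 3.63, 3.79 and 2.85 CPM at E15.5 and 4.21, 4.61 and 4.07 CPM at E18.5. At P5 it was at 24.0, 21.1 and 23.6 CPM and at P8 at 21.4, 22.4 and 23.4 CPM, a narrow spread within each time-point (log2 fold change 2.50, SE 0.12, edgeR FDR = 4.8e-09 from E18.5 to P5). *Cxcr6* was far lower, with 0, 0.275 and 0 CPM at E15.5 and 0.123, 0.0383 and 0 CPM at E18.5 (6, 2 and 0 reads in the E18.5 replicates). It was at 1.91, 0.764 and 0.805 CPM at P5 and 1.79, 1.93 and 0.559 CPM at P8 (log2 fold change 4.52, SE 1.12, edgeR FDR = 0.0030), with P8 replicates 1 and 2 each over 3 times replicate 3 but P5 replicate 1 lying between these 2 libraries.

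*Cxcl17*, a mucosal chemokine of airway epithelium, had the largest fold change of all members from E18.5 to P5. It was at 0.0161, 0.0983 and 0.0197 CPM at E15.5 and 0.0616, 0 and 0.0732 CPM at E18.5, which rested on 3, 0 and 4 reads in the E18.5 replicates. At P5 it was at 3.23, 4.25 and 3.91 CPM (log2 fold change 6.41, SE 0.54, edgeR FDR = 3.9e-07). It rose again to 11.8, 15.49 and 8.05 CPM at P8, all above P5 (log2 fold change 1.62, SE 0.35, edgeR FDR = 0.010). That second call was lost without P8 replicate 2, and against P8 replicate 3 alone, without the 3 libraries high in thymus genes, its log2 fold change was 1.06 (edgeR FDR = 0.15, the spread of this 1 library being taken from the other time-points).

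*Cx3cl1* (fractalkine), a chemokine tethered to endothelial and epithelial membranes, was at 7.94, 8.06 and 8.10 CPM at E15.5, then at 11.7, 10.5 and 11.3 CPM at E18.5 and next at 20.6, 25.1 and 21.4 CPM at P5 (log2 fold change 1.09, SE 0.09, edgeR FDR = 4.7e-07 from E18.5 to P5). It was at 26.9, 26.1 and 30.5 CPM at P8, and its libraries did not overlap between any adjacent time-points, with smaller differences past the FDR cutoff alone between E15.5 and E18.5 (0.48, edgeR FDR = 0.0051) and from P5 to P8 (0.30, edgeR FDR = 0.040). *Cx3cr1*, its receptor on monocytes and macrophages, was at 11.9, 17.4 and 12.6 CPM at E15.5 and 10.3, 10.3 and 12.8 CPM at E18.5. It was at 19.0, 17.7 and 13.9 CPM at P5 and 29.0, 28.5 and 32.0 CPM at P8. Both later differences passed the FDR cutoff under the fold change cutoff, 0.69 from E18.5 to P5 (edgeR FDR = 0.0019) and 0.80 from P5 to P8 (edgeR FDR = 0.0071). The receptor thus differed between P5 and P8 without overlap, as did the macrophage and monocyte marker sum, which was 482 to 551 CPM at P8 and whose part was not tested.

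*Cxcr5*, the receptor for Cxcl13 on B cells, rose while *Cxcl13* itself was not called. *Cxcr5* was at 0.0484, 0.118 and 0.0983 CPM at E15.5 and 0.0616, 0.0957 and 0 CPM at E18.5 (3, 5 and 0 reads at E18.5). It was at 2.99, 2.35 and 3.60 CPM at P5 and 4.29, 3.97 and 1.66 CPM at P8 (log2 fold change 5.88, SE 0.63, edgeR FDR = 3.6e-06 from E18.5 to P5). Its exons overlap *Bcl9l*, as those of *Cx3cr1* overlap *Gm33858*, those of *Cxcl16* *Zmynd15* and those of *Ccl27a* *Il11ra1*. The 8 B cell markers summed to 14.8 to 18.2 CPM at E18.5 against 73.1 to 93.1 CPM at P5, with all 8 higher in every P5 library, and their part was not tested. *Cxcl13* ranged from 0.413 to 8.35 CPM over the 12 libraries and its groups overlapped across birth (edgeR FDR = 0.12).

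The homeostatic ligands not yet described were *Cxcl14*, *Ccl27a*, *Ccl28* and *Ccl25*. *Cxcl14* and *Ccl27a* were lower in all 6 postnatal than in all 6 embryonic libraries, but their differences from E18.5 to P5 stayed under the fold change cutoff (log2 fold change -0.88, SE 0.13, edgeR FDR = 7.5e-05 for *Cxcl14*, and edgeR FDR = 0.25 for *Ccl27a*). *Ccl28* ranged from 0.334 to 2.70 CPM and was not called.

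*Ackr2*, a scavenger of inflammatory CC chemokines known from lymphatic endothelium, was the one member called in both of the first 2 intervals. It was at 0.823, 0.983 and 0.865 CPM at E15.5 and 3.96, 3.92 and 2.40 CPM at E18.5 (log2 fold change 1.95, SE 0.21, edgeR FDR = 4.3e-04). It rose again to 28.5, 27.4 and 22.9 CPM at P5 (log2 fold change 3.03, SE 0.19, edgeR FDR = 4.6e-08) and was at 25.0, 21.9 and 29.4 CPM at P8. The groups did not overlap between E15.5, E18.5 and P5, while P5 and P8 did. Both calls held whichever of the 12 libraries was left out.

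**Figure D4:**
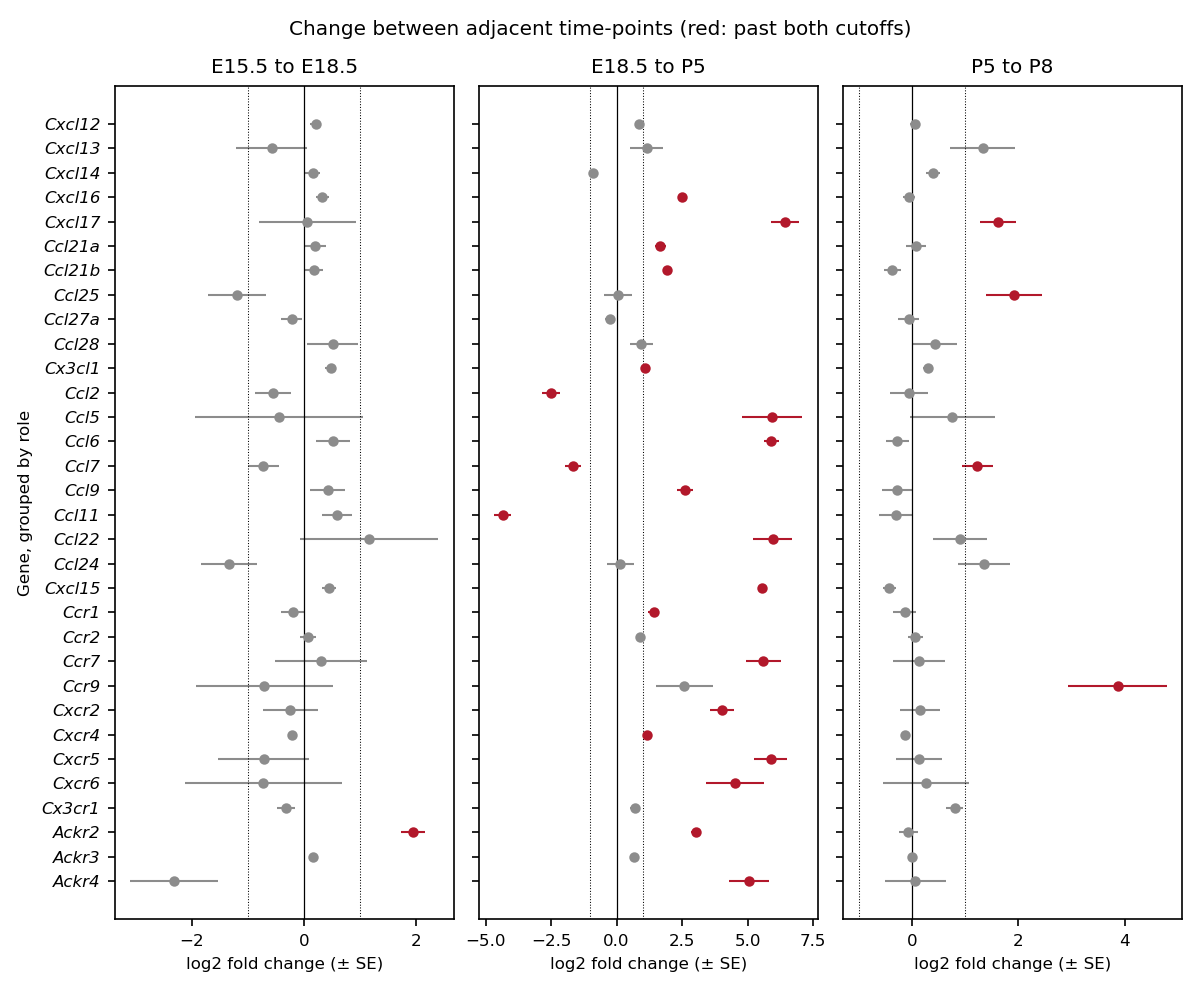
The log2 fold change of 32 of the 33 genes is plotted for the 3 comparisons, with a bar of 1 SE on each side, dotted lines at -1 and 1, and red for a call (the horizontal scales differ). Of the red points 18 lie to the right and 3 to the left from E18.5 to P5, against 1 between E15.5 and E18.5 and 4 between P5 and P8.

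*Ccl25* and *Ccr9*, the ligand and receptor that guide progenitors and thymocytes in the thymus and T cells in the small intestine, were high in P8 replicates 1 and 2. *Ccl25* was at 2.12, 2.29 and 3.02 CPM at P5 and 9.38, 16.9 and 2.38 CPM at P8, and *Ccr9* was at 0.819, 0.805 and 0.937 CPM at P5 and 12.1, 24.3 and 1.63 CPM at P8. At E15.5 the replicates were at 4.03, 8.92 and 4.35 CPM for *Ccl25* and 0.0323, 0.688 and 0.0393 CPM for *Ccr9*, with replicate 2 the highest for both. At E18.5 they were at 2.46, 2.32 and 2.77 and 0.246, 0.153 and 0.0549 CPM. The highest libraries of E15.5 and P8 are thus the same 3 that were high in thymus genes. Both genes were called higher from P5 to P8 (log2 fold change 1.93, SE 0.53, edgeR FDR = 0.027 for *Ccl25*, and log2 fold change 3.86, SE 0.92, edgeR FDR = 0.016 for *Ccr9*). Without the 3 thymus-high libraries P8 was left with replicate 3 alone, and the log2 fold change was -0.080 for *Ccl25* and 0.90 for *Ccr9*, given as values with no test because the libraries left out are those in which both genes were highest. These 2 members alone had P8 replicates 1 and 2 each at least 3 times replicate 3 and above every E18.5 and P5 library. Since this mark itself places 2 of the 3 P8 libraries above P5, the 2 calls from P5 to P8 are not independent of it and are given as a description. Just outside this mark, P8 replicates 1 and 2 were 3.20 and 3.45 times replicate 3 for *Cxcr6*, 3.88 and 5.72 times for *Ccl5* and 2.90 and 3.84 times for *Ccl22*. The exons of *Ccl25* overlap *Elavl1* and those of *Ccr9* overlap *Slc6a20a*.

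**Figure D5:**
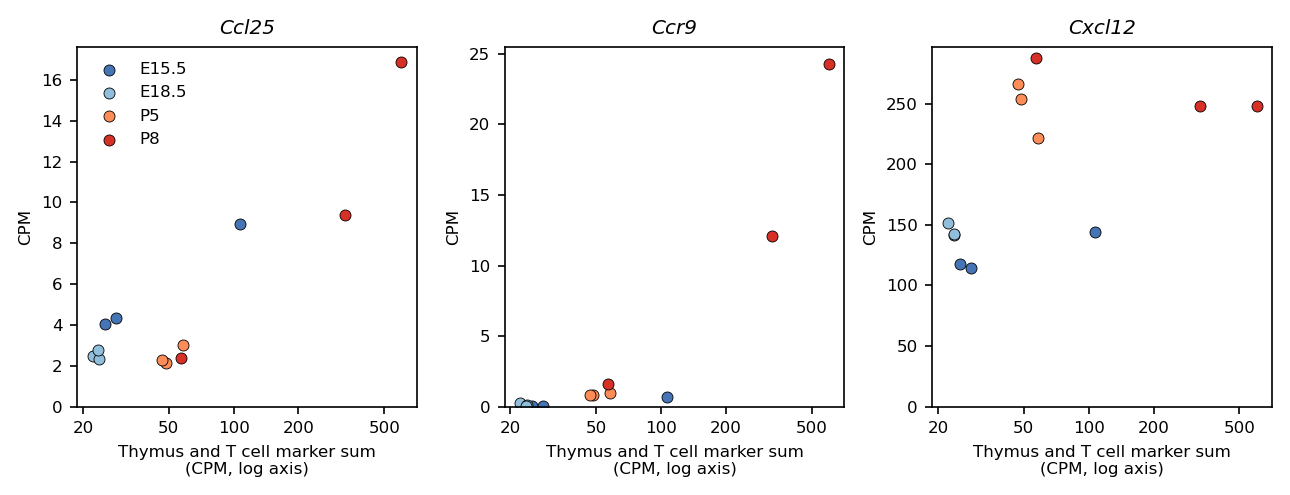
The level of *Ccl25*, *Ccr9* and, for contrast, *Cxcl12* in each library (CPM, linear axes from 0) is plotted against the sum of 21 thymus and T cell markers (CPM, log axis), with colours for the time-points. *Ccl25* and *Ccr9* are highest in the 2 P8 libraries with sums of 329 and 601 CPM, while *Cxcl12* in these libraries is at 248 CPM, between its P5 values.

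All 21 calls between E18.5 and P5 held whichever single library was left out. Without the 3 thymus-high libraries the log2 fold changes of these 21 kept their direction. The size of 4 of the 21 changes moved by more than 1.5 times when 1 library was left out, namely those of *Ccl5* and *Ccr7* given above, that of *Cxcr5* (log2 fold change 6.64 without E18.5 replicate 2 and 5.28 without E18.5 replicate 3) and that of *Cxcr6* (5.90 without E18.5 replicate 1, 3.92 with E18.5 replicate 3 omitted and 3.91 with P5 replicate 1 omitted). Other genes of chemokine signalling and transport, a list of 51 symbols of which 45 were tested, were counted in the same fit. Between E18.5 and P5, 22 of the 45 rose and 1 fell, beside the 17.5% higher and 9.34% lower over all genes tested, with a median log2 fold change of 0.999. Of these 45, 42 met the filter on each side of birth, of which 19 rose and 1 fell. Among all genes of that kind 12.2% rose and 8.55% fell. The other 3 met it in the postnatal libraries alone and all rose, as did 85.3% of all genes of that kind. The 2 largest increases were those of *Cd74* (log2 fold change 5.63, SE 0.52), the invariant chain that also serves as a receptor for Mif, and of the myeloid Src-family kinase *Fgr* (4.78, SE 0.37). *Mif*, a cytokine that binds Cxcr2, Cxcr4 and Cd74, was the one that fell (log2 fold change -2.53, SE 0.13, edgeR FDR = 9.4e-09). None was called by edgeR or by DESeq2 in the other 2 comparisons, where 19 genes between E15.5 and E18.5 and 18 between P5 and P8 had an unadjusted p under 0.05.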

How the data were processed

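Bulk lung RNAseq was measured in 12 libraries (paired-end reads from a Truseq kit, whose strandedness is not given in the sources used here). The authors mapped reads uniquely to mm10 with TopHat2 (2.1.1) and Bowtie2 (2.3.4), counted them per gene with HTSeq-count (0.10.0) on Gencode vM14, and deposited raw counts for 16152 genes kept as expressed. The authors also deposited CPM for 51825 genes, each count divided by all mapped reads of the library. Levels here are this CPM. Whole reads were recovered from it (100.0% of values within 0.01 reads).

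Symbols were matched by gene ID for 16136 genes. Counts were fitted with edgeR 4.0.16 (R 4.3.3; TMM, quasi-likelihood test, all 12 libraries in one fit) over 15994 genes with at least 1 count per 1000000 counted reads in 3 libraries, and p-values were adjusted over all of them. SE is the absolute log2 fold change divided by the square root of F.

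Values per library are given for members called in at least 1 comparison, those with a mean of at least 10 CPM and those marked for thymus RNA. The mark requires P8 replicates 1 and 2 to be 3 times replicate 3 and above every E18.5 and P5 library. The members and lists were chosen with earlier results of these data known. Alternatives were other size factors, DESeq2 1.42.0, no filter, FDR alone, a replicate block, fewer libraries and, chosen after seeing the data, the recovered reads. Replicate numbers did not pair samples: deviations from group means correlated between -0.29 and 0.27 for same-numbered libraries, and 4 of 18 pairs were over 0.1. One member, called in no comparison, and 1 pathway gene enter the counts but are not reported here by name. Splicing tables were not used here.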

Additional observations from a re-analysis of the deposited data

Results flagged for a closer look

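A signal was seen in data outside the count table. The deposited CPM table lists 27 further genes of the chemokine and receptor name rule, and 19 of them had more than 3 reads in every library of at least 1 time-point. In the fit on recovered reads over 25809 genes, 26 could be tested. From E18.5 to P5, 10 were called higher (*Ccl3*, *Ccl17*, *Ccl19*, *Ccr4*, *Ccr6*, *Cxcl2*, *Cxcl5*, *Cxcl9*, *Cxcr1* and *Cxcr3*) and none lower, where 3627 of all genes in that fit were called higher and 1767 lower. These 10 calls rested on few reads, from 0 (*Ccl19* and *Cxcl2*) to 35 (*Ccl3*) over the E18.5 replicates together. At P5 the totals were 35 (*Cxcl2*) to 149 (*Ccl3*), and the SE of the log2 fold changes ranged from 0.46 to 2.19. Genes with so few reads at E18.5 had little room to be called lower. None of the 26 was called by edgeR in the other 2 comparisons, with 2 genes in the first and 3 in the last at an unadjusted p under 0.05. For 8 of the 27 all 6 postnatal libraries lay above all 6 embryonic ones, and for none below. The share of all genes separated in this way is not given here, so that count is a description only.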

How the results depend on the processing

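The 26 named log2 fold changes kept their direction and side of the cutoffs with other size factors (RLE or library size only), DESeq2, no filter and the recovered reads. With only the 6 libraries of the comparison, 25 did, and *Ccl25* from P5 to P8 lost its call. Without the 3 libraries high in thymus genes 23 did, *Ccl25* turned to -0.080, and *Ccr9* and *Cxcl17* lost their calls from P5 to P8. That setting leaves P8 with 1 library, assumed to vary like the other groups, so its P5 to P8 calls have no replicate check. From E15.5 to E18.5 the member count of 1 became 3 with FDR alone, 2 with DESeq2, 2 with the replicate block and 2 with the 6 libraries only, of which 1 was lower in each of the last 3 settings, and with single libraries left out it was 1 to 3 (0 to 2 lower). From P5 to P8 the count of 4 became 7 with FDR alone, 1 without the thymus-high libraries, and 1 to 4 with single libraries left out. *Ccl25* lost this call without any one of P5 replicates 1, 2 and 3 or P8 replicates 1 and 2, *Ccr9* without any one of P5 replicates 1, 2 and 3 or P8 replicate 2, and without P8 replicate 2 their log2 fold changes were 1.25 and 3.01. For the other pathway genes, the counts of 0, 23 and 0 became 12, 40 and 12 with FDR alone, the first became 1 (higher) without the thymus-high libraries, and single libraries left out gave 0 to 1, 22 to 25 and 0 to 2. The paired fit with a replicate block gave 2, 22 and 4 member calls and 0, 23 and 0 pathway calls in the 3 comparisons, and 4 of 12 libraries correlated best with their own number. The causes of these differences were not tested. Counts with FDR alone or at an unadjusted p are given without the share over all genes. They are therefore not read as particular to the members or the pathway genes. Depth limits genes with few reads before birth, such as *Cxcl17* and *Cxcr6*, whose fold changes are uncertain in size.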
